A study of Mus musculus with 6 samples.

Results

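The granule cells called n09-GC-3 are a type of neuron of the adult mouse olfactory bulb, 1 of 18 in the deposited annotation. Their members were taken here as every cell that the deposited cell annotation gives that type, and they came to 273 cells of 21746 annotated neurons (1.26%), within 51426 annotated cells of the whole bulb. Among the 12 types taken as born in the adult brain, they were 1.67% of 16302 cells. Single-cell RNA-seq libraries of the whole bulb were made from C57BL/6NJ mice aged 14 weeks after 6 weeks in which smell was left alone, blocked on 1 side or trained. There were 3 groups: control mice, mice with 1 naris occluded, and mice trained on an odour discrimination task. By the study's account the occluded side was the deprived sample, and the trained mice were deprived of water. Each group had 2 libraries and each library pooled the bulbs of 3 mice, so that a value per library is an average over animals that were not measured apart. Replicate 1 of each group came from males and replicate 2 from females, and sex is therefore shared by all libraries of the same number. Xist, the RNA made from the inactive X chromosome, had no unique molecular identifier (UMI, a tag that counts 1 captured RNA molecule) in the replicate 1 cells of n09 and 88 to 150 UMIs in the replicate 2 cells.

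Granule cells are the most numerous inhibitory neurons of the olfactory bulb. They have no axon, and they release GABA from their dendrites back onto the mitral and tufted cells that carry odour information out of the bulb. New ones arrive throughout life: neuroblasts are born beside the lateral ventricle, travel along the rostral migratory stream and mature in the granule cell layer. GABA is made by glutamate decarboxylase, which the genes Gad1 and Gad2 encode, and it is loaded into vesicles by the transporter that Slc32a1 encodes.

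Of the genes that stood highest in n09 against every other type, 4 that encode Reprimo or a secreted protein recur throughout the results below, and for each the 250 bases before a transcription start of RefSeq are given here so that their sequence can be read beside their levels. Rprm encodes Reprimo, a membrane glycoprotein induced by p53 that holds cells before mitosis. Cartpt encodes the precursor of the CART peptides, Prok2 encodes prokineticin 2, a secreted protein that attracts neuroblasts arriving at the bulb, and Inhba encodes the subunit whose dimer is activin A. The sequences come from RefSeq on GRCm38.p6 and read 5′ to 3′ on the strand of the gene, and capitals mark the motif matches that are described after them. For Cartpt and Inhba the start used lay inside the annotated gene, 9496 and 7595 bases from its outer 5′ end, so that these windows are not the only possible promoters of the 2 genes.
Rprm, minus strand, chr2:54085553-54085802: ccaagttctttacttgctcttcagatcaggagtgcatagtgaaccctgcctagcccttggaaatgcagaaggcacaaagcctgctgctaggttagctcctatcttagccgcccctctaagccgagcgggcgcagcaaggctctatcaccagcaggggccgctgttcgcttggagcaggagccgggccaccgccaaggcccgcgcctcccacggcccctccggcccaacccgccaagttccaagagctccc
Cartpt, minus strand, chr13:99900684-99900933: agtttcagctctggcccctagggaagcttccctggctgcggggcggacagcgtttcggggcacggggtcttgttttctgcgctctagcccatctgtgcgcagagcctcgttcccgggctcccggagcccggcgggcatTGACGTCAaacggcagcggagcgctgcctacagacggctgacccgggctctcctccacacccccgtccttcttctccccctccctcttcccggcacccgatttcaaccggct
Prok2, minus strand, chr6:99726393-99726642: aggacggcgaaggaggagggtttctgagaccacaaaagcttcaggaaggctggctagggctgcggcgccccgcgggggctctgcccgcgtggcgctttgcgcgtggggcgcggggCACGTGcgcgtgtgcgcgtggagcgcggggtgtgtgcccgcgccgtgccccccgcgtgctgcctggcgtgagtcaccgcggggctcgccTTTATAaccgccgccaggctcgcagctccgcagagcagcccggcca
Inhba, plus strand, chr13:16011601-16011850: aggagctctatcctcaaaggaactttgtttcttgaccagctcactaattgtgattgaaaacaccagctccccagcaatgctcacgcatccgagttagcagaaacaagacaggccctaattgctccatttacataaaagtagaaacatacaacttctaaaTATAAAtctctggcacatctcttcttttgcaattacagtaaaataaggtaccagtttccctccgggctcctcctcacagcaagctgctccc

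Motifs were searched as exact letters on both strands of these 250 bases: the cAMP response element TGACGTCA, the E-box CACGTG, the TATA box TATAAA and the MEIS half-site TGACAG. No motif holds the letters of another. The genes themselves lie at chr2:54084093-54085552 (Rprm), chr13:99898483-99910179 (Cartpt), chr6:99711299-99726392 (Prok2) and chr13:16004256-16031609 (Inhba). The Cartpt promoter held TGACGTCA, beginning 112 bases before the start used, as did 1.55% of 32851 RefSeq promoters of 27025 genes. The Prok2 promoter held CACGTG 135 bases before the start, found in 6.02% of all promoters, and TATAAA on the opposite strand 46 bases before it. TATAAA also lay 91 bases before the Inhba start and was in 12.4% of all promoters. Base composition set the promoters apart, since Prok2 had 73.6% G and C, Cartpt 66.8%, Rprm 62.4% and Inhba 43.2%, against a median of 52.4% over all promoters. Rprm had none of the 4 motifs in this window. Among the 20 of the 30 leading genes with a promoter entry, 1 held TGACGTCA, 2 held CACGTG, 3 held TATAAA and 3 held TGACAG. The last was in 15.9% of all promoters.

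The n09 cells carried 382272 UMIs in all. Their median was 1291 UMIs and 835 genes per cell, the range ran from 529 to 4456 UMIs, and 97 cells (35.5%) had under 1000 UMIs. The control libraries gave 61 and 35 n09 cells, the occluded libraries 38 and 55, and the trained libraries 38 and 46. Summed over those cells, a library held between 46124 and 78763 UMIs of n09, so that the limit a count of 0 allows (3 UMIs) lay between 38.1 and 65.0 CPM (UMIs of a gene per 1000000 UMIs). Whole libraries held 11841160 to 17065083 UMIs in 6705 to 10570 annotated cells, no 2 n09 cells shared a barcode, and 13 n09 cells had a barcode that also occurred in another annotated cell. All levels below are CPM of the UMIs summed over a type's cells in a library, given as mean ± SD over the 6 libraries. Because the type was drawn from the same expression values, its levels against other types are a description with no test.

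The 9 inhibitory neuron markers summed to 1276 ± 127 CPM in n09, only rank 14 of the 18 types. The 12 granule cell markers summed to 6662 ± 725 CPM, the fifth level among 18 types. That sum does not part granule from other types, since n04-Immature (5784 CPM) and n13-AstrocyteLike (5109 CPM) lay above granule type n03 (3296 CPM). Of the 12, 2 lay above and 2 below all 7 other granule types, beside 13.1% and 8.33% of all genes. The 10 markers of mature neurons summed to 4098 ± 392 CPM, also the fifth level. Sox11, the transcription factor that marks newly generated neurons, was at 232 ± 55.3 CPM, second to the immature type n04. Markers of periglomerular cells, the inhibitory neurons around the glomeruli, summed to 163 ± 72.1 CPM and were the lowest of any type. Those of mitral and tufted cells summed to 173 ± 70.9 CPM against 6872 CPM in n17-M/TC-3. The vesicular glutamate transporter gene Slc17a7 was at 36.0 ± 26.0 CPM in n09 and 2038 ± 287 CPM in n17. Glial, vascular and blood markers were found in n09 as in the other neurons: astrocyte markers summed to 1018 ± 149.8 CPM, oligodendrocyte markers to 1527 ± 353 CPM, ensheathing cell markers to 1744 ± 720.5 CPM, microglial markers to 223 ± 110.2 CPM, endothelial markers to 213 ± 85.1 CPM and red blood cell markers to 163 ± 134 CPM, at ranks 8 to 12 of the 18 types.

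A small set of genes set n09 apart. Of 1801 genes with at least 100 CPM in n09, 52 stood at least 1.5 times above the mean of every other neuron type, which put n09 seventh of 18 types by that count. Over the 7021 genes with 50 CPM or more in any type, 4.94% had their highest mean in n09. The 30 genes with the largest log2 ratio to the highest other type are called its leading genes, and 20 of them were highest in n09 in each of the 6 libraries. For 23 the gap was larger than the SDs of both types together. A published list of 51 genes for these cells was drawn from the same samples, so its direction is no independent evidence, and n09 had the highest mean for 33 of them, the second for 11 and a lower rank for 7.

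Rprm was the sixth in the order of leading genes and the second of the 30 in level, after Id2. It was 1774 and 1639 CPM in the control libraries, 1355 and 1765 CPM in the occluded and 1604 and 2341 CPM in the trained. All 6 values lay far above the next type, n03-GC-1, at 294 ± 53.7 CPM, a ratio of 5.94, and the trained replicate 2 library was the highest. Its near relative Rprml did not share the pattern, with 351 ± 105 CPM in n09 and 402 ± 15.7 CPM in n11-GC-5. Of 16 genes listed for cell cycle arrest and the p53 response, 2 had their highest mean in n09, beside 4.94% of all genes, Rprm and Gadd45b (67.6 ± 37.5 CPM, from 25 UMIs), while Cdkn1a, which encodes the p53 target p21, was at 63.9 ± 29.8 CPM in n09 against 298 ± 93.8 CPM in n12-GC-6. Dividing cell markers summed to 90.5 ± 38.7 CPM and 4 of the 8 had no UMI in n09.

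**Figure D1:**
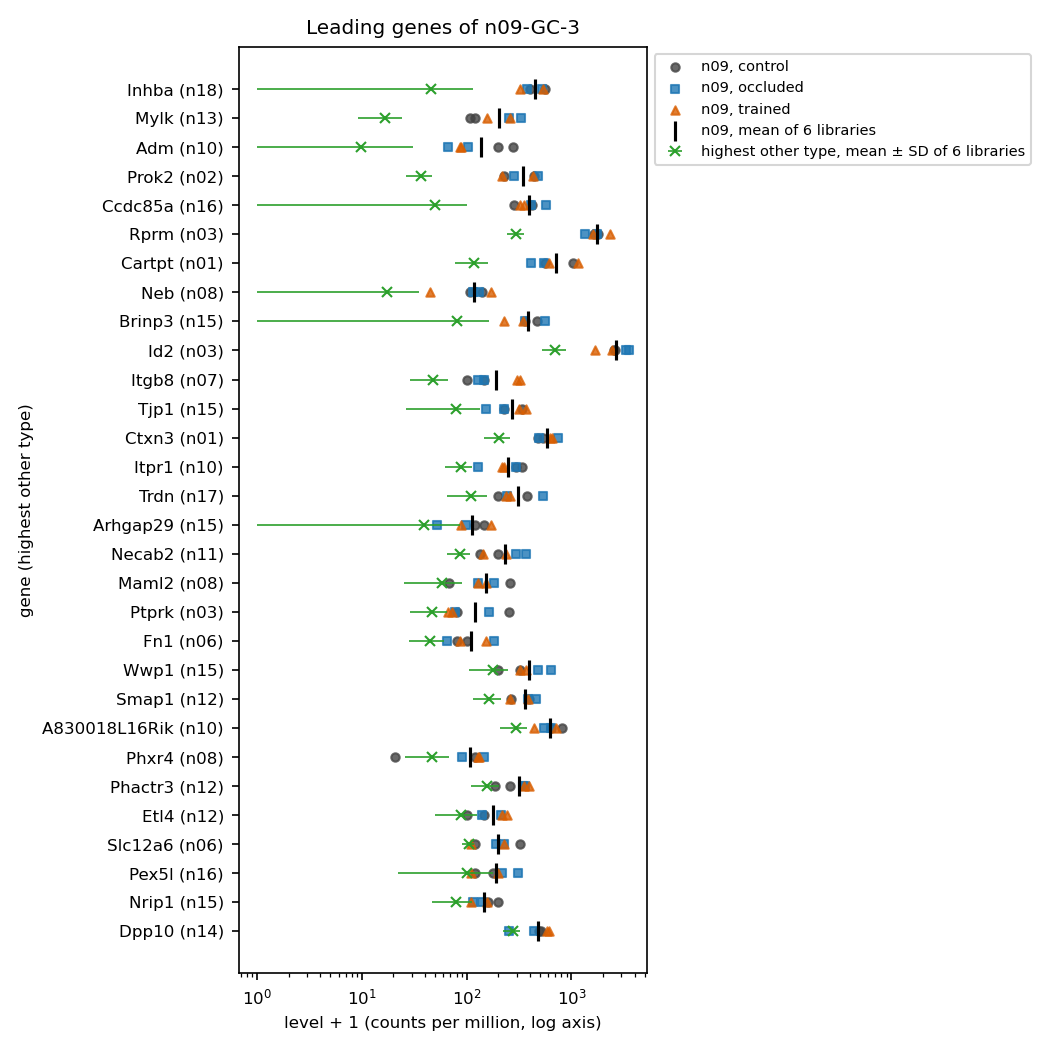
Levels of the 30 leading genes of n09-GC-3 on a log axis of CPM + 1, with 1 point per n09 library, and the mean ± SD of the highest other type as a cross. For 20 of the 30 genes all 6 libraries had n09 above every other type, and the gap narrows from Inhba at the top of the order to Dpp10 at its end.

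Several of the leading genes encode secreted factors. Cartpt was 1040.2 and 553 CPM in the control libraries, 408 and 546 CPM in the occluded and 1149 and 610.0 CPM in the trained. Replicate 1 was the higher library among control and trained and the lower among occluded, and all 6 libraries were above the next type, the olfactory sensory neurons n01, at 117 ± 40.5 CPM. Inhba was 400.1 and 553 CPM in the control libraries, 375 and 521 CPM in the occluded and 325 and 539 CPM in the trained. Its next type was n18-EPL-IN at 44.6 ± 69.3 CPM, a ratio of 10.1 (a log2 ratio of 3.08, or 2.34 as the mean over cells of single-cell CPM), and replicate 2 was higher than replicate 1 in each group. Of 25 listed genes of activin and BMP signalling, 2 had their highest mean in n09, beside 4.94% of all genes, and the summed list was the fourth of 18 levels. They were Inhba and the signal transducer Smad3 (22.4 ± 22.4 CPM, from 8 UMIs). The receptor genes Acvr1, Acvr1b and Acvr2a were at 42.1, 37.4 and 14.5 CPM. Fst, which encodes the activin antagonist follistatin, had 1 UMI in n09 and was at 192 ± 112 CPM in the mitral and tufted type n17.

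Prok2 was 227 and 434 CPM in the control libraries, 473 and 279 CPM in the occluded and 217 and 426 CPM in the trained. It was at 35.4 ± 9.98 CPM in n02-PGC-1, the next type, so that the lowest n09 library was still several times above that mean. Prokr2, its receptor gene, had 1 UMI in n09 and was highest in n04-Immature at 284 ± 34.1 CPM, while Prokr1 had no UMI in any of the 18 types. Adm, the gene of the vasodilator peptide adrenomedullin, was at 136 ± 83.7 CPM from 51 UMIs, with 8.71 ± 21.3 CPM in the next type. The control libraries held its 2 highest values, 200.0 and 276 CPM, and the other 4 libraries lay between 65.3 and 102 CPM. Of 28 secreted peptides and growth factors listed, 3 had their highest mean in n09 (Cartpt, Prok2 and Inhba), beside 4.94% of all genes, 6 lay above and 5 below all 7 other granule types, beside 13.1% and 8.33% of all genes, and 10 had no UMI there. Summed, the list was at 2484 ± 223 CPM, the sixth of 18 levels, with 9680.1 CPM in n18-EPL-IN. Penk, the gene of the enkephalin precursor of many granule cells, had 6 UMIs in n09 (16.7 ± 26.2 CPM) and stood at 447 ± 76.7 CPM in n07-GC-2.

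Detection per cell was counted for 4 of the leading genes. Rprm had a UMI in 153 of the 273 cells, Inhba in 107, Prok2 in 88 and Cartpt in 84, while 62 cells had none of the 4 and 16 had all of them. Thinned to 500 UMIs a cell, Rprm was found in 39.3% of n09 cells, Cartpt in 18.7%, Inhba in 17.9% and Prok2 in 13.7%. The same shares in n17-M/TC-3, taken here as a background of free RNA, were 1.44%, 0.518%, 0.254% and 0.215%. Those in n01-OSNs were 1.56%, 5.09%, 0.325% and 0.0342%. Inhba and Prok2 were found together in 53 cells, where independent detection would give 34.5, and Rprm with Inhba in 81 against 59.97. Cartpt and Prok2 were found together in 25 cells, close to the 27.1 of independent detection. Depth moved with detection: cells with a Rprm UMI had a median of 1610 UMIs and those without it 942, and the part of depth in the shared detection was not tested.

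Of the 29 potassium channel genes listed, Kcnip2, Kcnd2, Dpp10 and the leak channel gene Kcnk2 had their highest mean in n09, and the first 3 of these belong to the A-type current. This current opens below the firing threshold and inactivates quickly, and its channel is a complex of a Kv4 pore, which Kcnd2 encodes, a KChIP subunit such as the product of Kcnip2, and a DPP subunit such as the product of Dpp10. Kcnip2 was 1680.3 and 1579.7 CPM in the control libraries, 1730.2 and 1841 CPM in the occluded and 1453 and 1986 CPM in the trained. Every n09 library lay above the next type, n02-PGC-1, at 1133 ± 76.0 CPM, and n03-GC-1 was at 893 ± 46.8 CPM. In every other type Kcnip2 lay under 100 CPM, with 16.8 ± 5.07 CPM in n11-GC-5 and 31.3 ± 18.4 CPM in n10-GC-4. For the pore gene Kcnd2, the values were 507 and 494 CPM in the control libraries, 489.7 and 482 CPM in the occluded and 1019 and 624 CPM in the trained. The trained replicate 1 library stood above the other 5, which ran from 482 to 624 CPM, and n09 was the highest type in 5 of 6 libraries, with n14-GC-7 at 390.3 ± 81.5 CPM next. Dpp10 was 507 and 494 CPM in the control libraries, 441 and 254 CPM in the occluded and 607 and 582 CPM in the trained. Occluded replicate 2 was its lowest library, under the mean of n14-GC-7 (274 ± 50.4 CPM). The related Dpp6 was at 201 ± 71.8 CPM, seventh of the 18 types. Over the 29 listed potassium channel genes the summed level was 4109 ± 406 CPM, the highest of the 18 types, with 3416 CPM in n07-GC-2 next, and 4 of the 29 had their highest mean in n09 against 4.94% of all genes. That rank rested on Kcnip2, since without it the other 28 summed to 2397 ± 449 CPM, the seventh of 18 levels, with 3384 ± 198 CPM in n07.

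**Figure D2:**
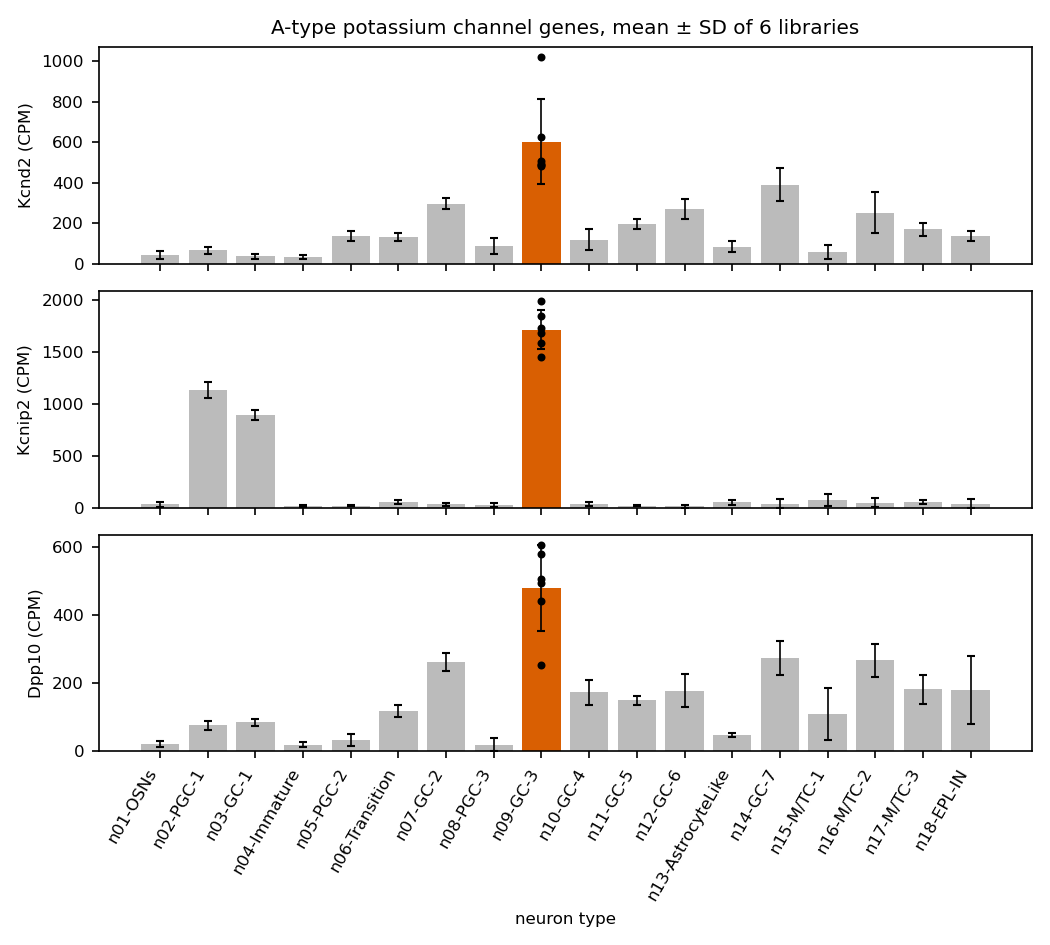
Kcnd2, Kcnip2 and Dpp10 in the 18 neuron types as bars of mean CPM with error bars of 1 SD over 6 libraries, with n09-GC-3 in orange and its 6 libraries as black points. Kcnip2 is near 0 in all but n02-PGC-1, n03-GC-1 and n09, and the 3 genes have their highest mean in n09.

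Some genes of calcium release from internal stores were also high. Itpr1, which encodes the inositol trisphosphate receptor that lets calcium out of the endoplasmic reticulum, was 333 and 296 CPM in the control libraries, 294 and 127 CPM in the occluded and 217 and 227 CPM in the trained. Occluded replicate 2 was the lowest library and still above the next type, n10-GC-4, at 86.3 ± 25.9 CPM. Trdn encodes triadin, a protein of the muscle calcium release complex, and was at 307 ± 128 CPM against 109.8 ± 45.9 CPM in n17-M/TC-3, highest in 4 of 6 libraries. With only cells of at least 1000 UMIs its log2 ratio to the highest other type fell from 1.41 to 0.023. The junctophilin genes Jph3 and Jph4, whose products tie the reticulum to the plasma membrane, had their highest means in n09 at 60.1 and 108 CPM, but within the spread of n12-GC-6 (50.1 ± 28.4 CPM) and n11-GC-5 (93.4 ± 20.8 CPM). The calcium sensor gene Ncs1 and the calmodulin-binding Nrgn completed the 6 of 34 listed genes that were highest in n09, beside 4.94% of all genes. Summed, the list was at 13386 ± 815 CPM, the sixth of 18 levels, with 22492 CPM in n11-GC-5, while 10 members lay above all 7 other granule types and 3 below them, beside 13.1% and 8.33% of all genes. Necab2, a calcium-binding protein gene, was at 229 ± 91.0 CPM against 84.8 ± 20.6 CPM in n11. Not all of the group was high: Ryr2, the other large release channel, was at 23.2 ± 10.4 CPM in n09 and 284 ± 10.4 CPM in n07-GC-2, and the plasma membrane calcium pump gene Atp2b1 was at 256 ± 79.0 CPM, under each of the 7 other granule types.

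Several leading genes are better known from contractile, adhesive or signalling cells. Mylk, the myosin light chain kinase gene, was at 204 ± 89.1 CPM and no other neuron type passed 15.7 CPM on average. Neb, the gene of the muscle protein nebulin, was at 117 ± 42.4 CPM. Tjp1, which encodes a scaffold of tight junctions, was at 271 ± 81.5 CPM, the integrin gene Itgb8 at 190.4 ± 95.9 CPM and the matrix gene Fn1 at 109.8 ± 45.6 CPM. Id2, whose product blocks basic helix-loop-helix transcription factors, was 2547 and 2587 CPM in the control libraries, 3313 and 3517 CPM in the occluded and 1669 and 2426 CPM in the trained. Trained replicate 1 was its lowest library, and all libraries exceeded the n03-GC-1 mean of 702 ± 177 CPM. Ccdc85a (392 ± 101 CPM), Brinp3 (386 ± 114 CPM) and the membrane protein gene Ctxn3 (587 ± 107 CPM) were also highest in n09 in all 6 libraries.

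Since some of those genes are expressed by vessels, the same levels were read in the 22 non-neuronal clusters of the bulb, mural cells (the contractile cells of vessel walls) among them. For 23 of the 30 leading genes n09 was above every one of them. Among the other 7, Mylk was higher in Mural2 (470.3 CPM), Arhgap29 and Tjp1 in Mural1 (394 and 375 CPM), and Fn1 in Mes2 (1195 CPM). The defining genes of mural cells were absent or close to it in n09: Acta2, Myh11 and Tagln had no UMI, Pdgfrb had 1 and Rgs5 had 9, while Mural2 had 1374 CPM of Acta2 and 3599.7 CPM of Rgs5. These 5 mural genes were chosen after the levels of the leading genes had been seen.

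Genes of GABA synthesis were at the level of cells that do not make GABA. Gad1 was 427 and 257 CPM in the control libraries, 310.1 and 216 CPM in the occluded and 260.2 and 241 CPM in the trained. Olfactory sensory neurons (n01) had 280.1 ± 109 CPM and mitral and tufted cells (n17), which release glutamate, had 261 ± 141 CPM, so that the n09 mean lay within the spread of both. The 7 other granule types ran from 580.2 ± 77.1 CPM in n03 to 2344 ± 263 CPM in n12-GC-6, and n09 was below all 7 in each library. Gad2 had 19 UMIs in all of n09, with 80.0 and 39.5 CPM in the control libraries, 49.0 and 76.2 CPM in the occluded and 21.7 and 14.2 CPM in the trained. It was the lowest of the 18 types, beside 49.1 ± 18.1 CPM in n01 and 59.5 ± 37.9 CPM in n17, and the other granule types had at least 116 CPM.

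Detection per cell gave the same picture once depth was held equal. A Gad1 UMI was found in 32.2% of n09 cells (median 1291 UMIs), 25.2% of n01 cells (808.5 UMIs) and 26.3% of n17 cells (865 UMIs). Thinned to 500 UMIs a cell, which every n09 cell reached, the shares were 14.6%, 15.5% and 14.8%, and they were 51.0% in n11-GC-5, 46.3% in n10-GC-4 and 23.5% in n03-GC-1. Gad2 was found in 2.94% of thinned n09 cells, against 2.85% in n01, 2.87% in n17 and 17.9% in n11. The thinned shares of Gad1 and Gad2 in n09 were thus at or beside those of n01 and n17, cells that should lack the genes. They were not the only match for Gad1, since n04-Immature had a thinned share of 13.8%. For Gad2, n04 was at 13.5%, well above n09. Thinning evens out UMIs, but not the part of them that is free RNA. The median mitochondrial share was 39.0% in n01, 16.4% in n17 and 8.44% in n04, against 9.52% in n09. How far the Gad1 and Gad2 UMIs of n09 were free RNA was not tested.

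Slc32a1 differed from them. The vesicular GABA transporter gene was 267 and 178 CPM in the control libraries, 212 and 139.7 CPM in the occluded and 238 and 298 CPM in the trained, and every library lay above the mean of n01 and n17. A UMI was found in 25.6% of n09 cells, or 11.6% after thinning, against 2.63% of thinned cells in n01, 2.83% in n17, 12.2% in n11, 10.8% in n03 and 17.9% in n10. After thinning Slc32a1 was thus detected well above its shares in n01 and n17, unlike Gad1 and Gad2 over n09 as a whole. In all, 3 of the 6 listed genes of the GABA pathway lay below every other granule type, beside 8.33% of all genes.

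**Figure D3:**
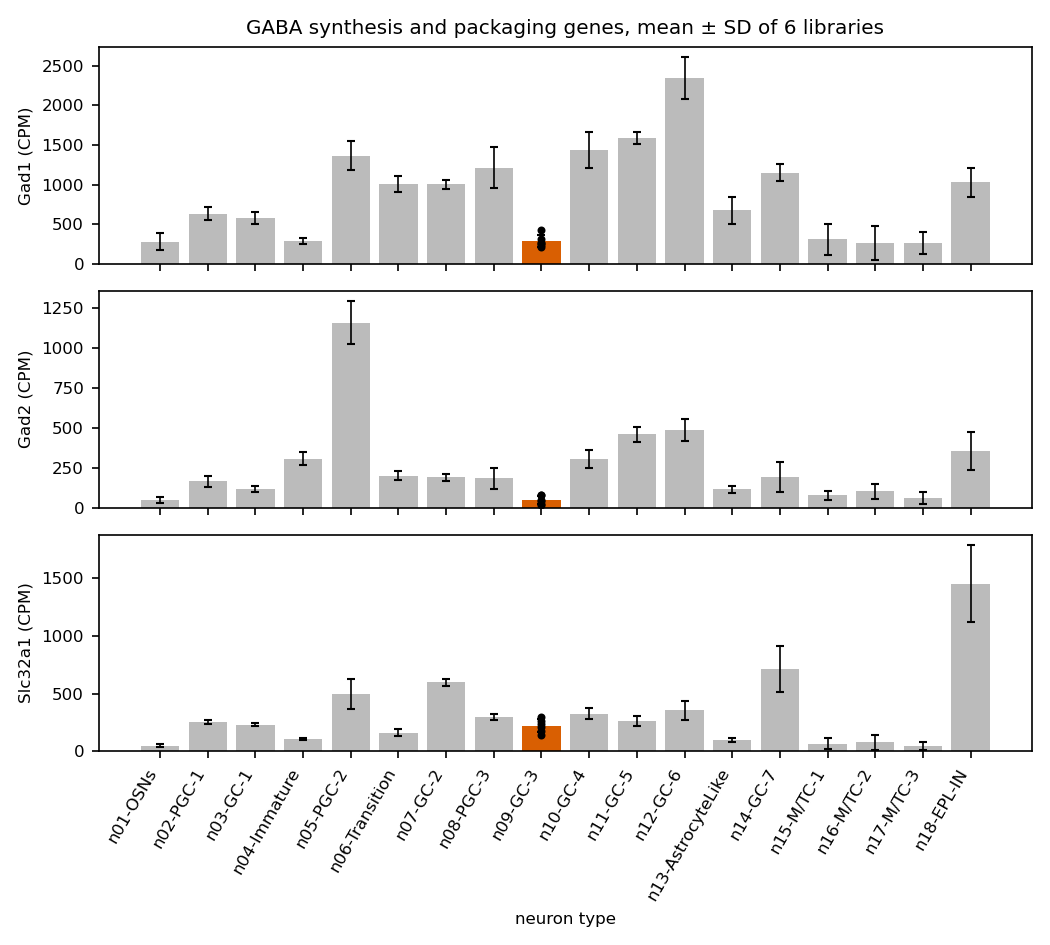
Gad1, Gad2 and Slc32a1 in the 18 neuron types as bars of mean CPM with error bars of 1 SD over 6 libraries, with n09-GC-3 in orange and its libraries as points. Gad1 and Gad2 in n09 are level with n01-OSNs and n17-M/TC-3, whereas Slc32a1 is near the other granule types.

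Of 58 listed transcription factors of bulb interneurons, 4 had their highest mean in n09, beside 4.94% of all genes, 8 lay above and 9 below all 7 other granule types, beside 13.1% and 8.33% of all genes, 7 had no UMI, and their summed level was the seventh of 18. Meis2, a homeobox gene of bulb interneurons, was 2120.3 and 2310.3 CPM in the control libraries, 2954 and 2362 CPM in the occluded and 1756 and 2809 CPM in the trained. Its mean was the highest of the 18 types, but n04-Immature was close at 2221 ± 168 CPM and n09 led in 4 of 6 libraries. Tshz1, a zinc finger gene that new granule cells need to leave the migratory stream, was at 748 ± 122 CPM, above n08-PGC-3 at 628 ± 69.8 CPM in 5 of 6 libraries. Foxp1 (63.5 ± 24.4 CPM) also had its highest mean in n09, within the spread of n10-GC-4. Sp8 and Sp9, a pair of factors required for bulb interneurons, were at 222 ± 90.2 and 306 ± 70.4 CPM, ranks 7 and 4 of the 18 types. The interneuron genes Dlx1, Dlx2 and Dlx5 were at 134 ± 46.1, 131 ± 30.3 and 130.3 ± 73.6 CPM, against 50.4 ± 25.6, 17.6 ± 15.2 and 23.2 ± 3.90 CPM in n01.

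Genes low in n09 included several of vesicles and secretory granules. Among genes with at least 100 CPM in each other granule type, Prune2 was the furthest below, at 56.3 ± 20.5 CPM against at least 240.2 CPM, and the lowest of the granule types in all 6 libraries. Nrsn1, a vesicle protein gene, was at 105 ± 64.0 CPM against at least 275 CPM. Synpr, which encodes the vesicle protein synaptoporin typical of granule cells, was at 378 ± 124 CPM in n09 and 1757 ± 269.8 CPM in n11, and Cplx1, a complexin gene, at 100.0 ± 52.1 CPM. The granin gene Scg2 was at 163 ± 76.96 CPM. Summed levels were fourteenth of 18 for granins and prohormone processing (2814 ± 347 CPM), for synaptic vesicle release (4900.2 ± 589 CPM) and for GABA and glycine receptors (1133 ± 231 CPM). In that order, 3 of 10, 3 of 20 and 4 of 16 members lay below all 7 other granule types, beside 8.33% of all genes. Above all 7 lay 0, 1 and 2, beside 13.1% of all genes.

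Receptors and adhesion molecules stood on both sides of the other granule types. Gria1, an AMPA receptor subunit gene, was at 90.4 ± 45.8 CPM against at least 169 CPM in the other granule types. Grm5, the gene of a group I metabotropic glutamate receptor that signals through inositol trisphosphate, was at 340.1 ± 82.5 CPM and had its highest mean in n09, within the spread of n18-EPL-IN. The muscarinic receptor gene Chrm3 was at 73.8 ± 33.8 CPM from 28 UMIs. Of 31 synaptic adhesion genes 9 were above all 7 other granule types and 7 below them, beside 13.1% and 8.33% of all genes. Adgrb3, an adhesion receptor of synapses, was 427 and 336 CPM in the control libraries, 489.7 and 521 CPM in the occluded and 520.3 and 610.0 CPM in the trained. It was highest in n09 in all 6 libraries, with n16-M/TC-2 at 286 ± 168 CPM next. The neuroligin gene Nlgn1 was at 287 ± 36.4 CPM, Lrfn5 at 393 ± 82.6 CPM and Slitrk5 at 123 ± 63.1 CPM.

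Sox11 was 147 and 197 CPM in the control libraries, 294 and 279 CPM in the occluded and 217 and 255 CPM in the trained. The order of the types ran from n04-Immature (2085 ± 98.4 CPM) to n09, n10-GC-4, n08-PGC-3 and n03-GC-1, and the gap between n09 and n10 was about as large as the SD of either. It had 89 UMIs in 65 of the 273 n09 cells. Thinned to 500 UMIs, 9.61% of n09 cells held a UMI, against 56.3% in n04, 6.94% in n10, 2.79% in n11, 1.72% in n01 and 1.34% in n17. Sox11 was therefore detected above its shares in n01 and n17 and far below that in n04. How far free RNA made up the Sox11 UMIs of n09 was not tested. The 12 immature markers summed to 2296 ± 445 CPM, rank 10 of 18, against 19343 CPM in n04. A wider list of 31 genes of immature neurons and migration summed to 8438 ± 1014 CPM, rank 5, with 9 members above all 7 other granule types and 2 below them, beside 13.1% and 8.33% of all genes. Dcx was at 134 ± 52.8 CPM, Sox4 at 271 ± 94.2 CPM and Tubb3 at 284 ± 79.2 CPM, while the dendritic Map2 (653 ± 100.2 CPM) had its highest mean in n09.

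Cells with and without Sox11 differed in depth as well as in genes. The 65 cells with a Sox11 UMI held 1720 UMIs in the median, 7.25% of them mitochondrial, and the 208 cells without it had 1156 UMIs and 10.9%. The 11 other immature markers summed to 2791 CPM in the cells with Sox11, 1756 CPM in the rest and 17258 CPM in n04. Tubb2b went the other way, at 143 CPM with Sox11 and 182 CPM without. Some of the 11 rested on few UMIs: Cd24a had 4 with Sox11 and 3 without, Igfbpl1 5 and 6, and Dpysl3 6 and 5. Rprm was 2470.2 CPM in the cells with Sox11 (95% Poisson interval 2195 to 2770, counting error only) and 1456 CPM in the rest (1314 to 1610). Cartpt went the other way at 590.1 CPM (460.1 to 746) and 759 CPM (657 to 871), with intervals that overlap. The part of depth in these differences was not tested.

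The annotation also holds a clustering of the whole bulb, and n09 cells came from mainly 2 of those clusters. N12 gave 180 n09 cells (65.9%) and N9 gave 75 (27.5%), and both included cells of all 6 libraries. N12 was shared with periglomerular and granule types, 247 cells of n08-PGC-3 and 193 of n10-GC-4 among them, and n09 made up 17.8% of its neurons. N9 was made up mainly of the 2 other types that a developmental ordering puts on one axis with n09, with 1668 cells of n06-Transition and 292 of n07-GC-2 among its 2187 neurons, of which n09 was 3.43%. The N9 cells were shallower, at 735 UMIs and 17.3% of UMIs from mitochondria in the median cell, against 1615.5 UMIs and 7.66% for the N12 cells. Most leading genes were found in both parts: 30 of 30 in the N12 cells and 29 of 30 in the N9 cells lay above the mean of the highest other type, Ctxn3 being the exception.

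Some genes nonetheless had Poisson intervals that did not overlap between these parts. The clusters were drawn from the same expression values, and the intervals hold no spread between libraries, so this is a description with no test. Rprm was 2077 CPM in N12 cells (95% Poisson interval 1916 to 2248) and 483 CPM in N9 cells (328 to 685). Inhba was 526 CPM (446 to 616) and 171 CPM (85.5 to 306), and Kcnip2 was 1921 CPM (1766 to 2086) and 903 CPM (686 to 1167). Gad2 was lower in N12, with 5 UMIs (16.97 CPM, 5.51 to 39.6) against 11 UMIs (171 CPM, 85.5 to 306), where the N9 value lay above the Gad2 means of n01 and n17 (49.1 and 59.5 CPM). Gad1 (268 and 358 CPM), Slc32a1 (214 and 265 CPM) and Cartpt (702 and 654 CPM) had overlapping intervals. Depth and mitochondrial share move with this split, and their part in it was not tested.

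Across the transcriptome n09 was most like another granule type. Pearson's r over 7021 genes on log2(CPM + 10) was 0.885 with n11-GC-5, 0.873 with n10-GC-4 and 0.859 with n03-GC-1, and it fell to 0.802 with n04-Immature, 0.783 with n14-GC-7 and 0.609 with n15-M/TC-1. These are values across genes, which are not independent, and the types share libraries. n11 was the most like in each of the 6 libraries taken alone, with r of 0.762 to 0.822. The place of n10 did not hold there, since its r in single libraries was 0.658 to 0.769, against 0.741 to 0.809 for n03 and 0.712 to 0.776 for n12-GC-6. A library held 26 to 64 cells of n10, 139 to 587 of n03 and 22 to 56 of n12, and the part of cell number was not tested.

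**Figure D4:**
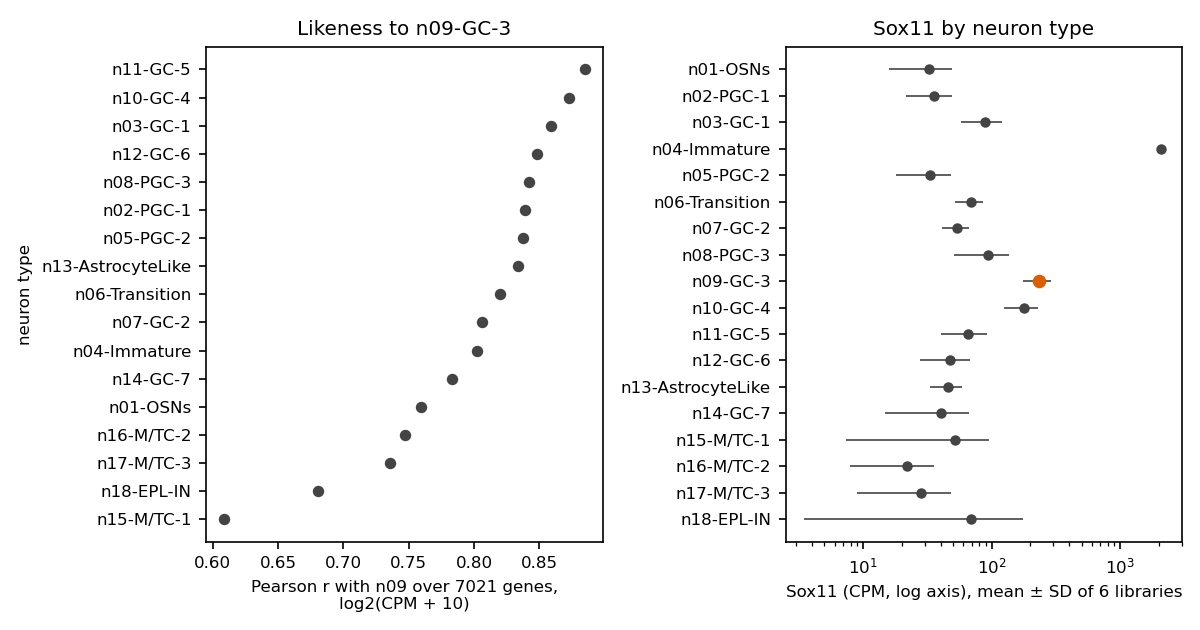
Left, Pearson's r between n09-GC-3 and each other neuron type over 7021 genes, with n11-GC-5 first at 0.885. Right, Sox11 in the 18 types on a log axis of CPM with 1 SD over 6 libraries, n09 in orange, where n04-Immature lies above all other types and n09 is second.

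A developmental ordering of these neurons has n09 with n06-Transition and n07-GC-2 on its axis B and the 8 types n02, n03, n05, n08, n10, n11, n12 and n14 on its axis A. That ordering placed single cells, whereas the counts below compare mean levels of types, an unlike measure. The paper itself names n09 and n14 as exceptions in its map drawn from regulons, the putative target genes of a transcription factor. There these 2 types did not match in full. On the 50 genes that were highest on each axis relative to the other, chosen without n09, n09 was nearer the axis B mean for 27 of 100 genes and nearer the axis A mean for 73. Of the 50 genes higher on axis B it was nearer B for 8, at a median log2 difference of 0.31 from A and -1.50 from B. Of the 50 higher on axis A it was nearer B for 19. The same count was 56 for n14-GC-7, 47 for n11-GC-5, 44 for n12-GC-6 and 33 for n04-Immature, and it was 8 for n03, 9 for n02, 13 for n05 and n10 and 18 for n08, although the A types and both B types were themselves used to choose the genes. The B types were shallow, at 730.0 UMIs and a mitochondrial share of 15.2% in the median cell of n06 and 882 UMIs and 17.4% in that of n07, and with only cells of at least 1000 UMIs in every type n09 was nearer B for 22 of 100 genes.

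The share of n09 among adult-born neurons was close in the 3 groups. It was 1.90% (95% Wilson interval 1.49 to 2.44) and 1.57% (1.13 to 2.18) in the control libraries, 1.63% (1.19 to 2.23) and 1.88% (1.45 to 2.44) in the occluded, and 1.14% (0.831 to 1.56) and 2.02% (1.52 to 2.69) in the trained. The trained libraries held both the lowest and the highest share, and the 3 groups overlapped. The group means were 1.74% ± 0.236, 1.75% ± 0.178 and 1.58% ± 0.625 (SD, n = 2). By the two-sided exact permutation test p was 1 for each of the 3 comparisons, where 2 libraries against 2 cannot go below 0.333. In edgeR's quasi-likelihood test over the 12 adult-born types, the log2 ratio was 0.01 ± 0.36 (SE, Benjamini-Hochberg adjusted p = 0.981) for occluded against control. It was -0.17 ± 0.36 (adjusted p = 0.809) for trained against control and -0.18 ± 0.36 (adjusted p = 0.822) for trained against occluded. The trained libraries decided the sign, since trained against control gave 0.21 without trained replicate 1 and -0.62 without trained replicate 2. With trained against occluded the sign also turned with TMM factors over the 12 types (0.10). With SEs of this size the values do not show that the shares were alike.

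Few genes differed between the groups within n09. Of 1417 genes tested by edgeR on UMIs summed per library, 2 (0.141%) passed an adjusted p of 0.05 for occluded against control, 0 (0%) for trained against control and 1 (0.0706%) for trained against occluded. Without trained replicate 2 the last 2 counts were 4 and 9, and with the replicate number as a block they were 1 and 3. At an unadjusted p under 0.05 there were 81, 65 and 99 genes, and DESeq2 called 0 genes in each of the 3 comparisons, with 16, 9 and 20 at an unadjusted p under 0.05. The trained and the occluded groups were compared with the same control libraries, so these comparisons are not independent. None of the 26 leading genes that were tested passed in any of them, and their median log2 differences were 0.06, 0.01 and -0.06, beside -0.01, -0.00 and 0.02 over all genes. At an unadjusted p under 0.05 there were 5, 3 and 8 of the 26, and members went both ways, with 14, 13 and 12 of them above 0. The 51 genes of the published list also gave 0 calls.

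S100a5, a calcium-binding protein gene of olfactory sensory neurons that follows odour input, was lower in the occluded group. It had 87 and 37 UMIs in the control libraries (1160.2 and 731 CPM), 26 and 6 in the occluded (424 and 76.2 CPM) and 38 and 27 in the trained (824 and 383 CPM). Both occluded values were under both control values, while trained replicate 2 fell between the occluded ones. The log2 difference of occluded from control was -2.10 ± 0.31 (SE, edgeR adjusted p = 3.02e-08), and the call was lost without control replicate 1 (edgeR adjusted p = 0.120), without occluded replicate 2 (0.444) and by DESeq2 (0.999). The size rested on single libraries too, from -1.22 without occluded replicate 2 to -3.68 without occluded replicate 1. The mitochondrial share of the median n09 cell was 13.6% and 8.53% in the control, 8.90% and 7.70% in the occluded and 11.5% and 7.95% in the trained libraries, higher in replicate 1 of each group, and its part in the S100a5 differences was not tested. The gene belongs to the sensory neurons, where its level was 28031 and 25567 CPM in the control, 15027 and 10026 CPM in the occluded and 19259 and 25037 CPM in the trained libraries. Its mean was lower in occluded than in control libraries in 17 of the 17 other neuron types. The 7 sensory neuron markers, S100a5 among them, summed in n09 to 1880.3 and 1066 CPM in the control, 718 and 571 CPM in the occluded and 1409 and 851 CPM in the trained libraries, with Omp, their defining gene, at 21.6 CPM in n09 and 726 CPM in n01 and Cnga2 at 0. Without S100a5 the other 6 summed to 720.1 and 336 CPM in the control, 294 and 495 CPM in the occluded and 585 and 468 CPM in the trained libraries, so that control and occluded overlapped, most of it from Gng13, at 416 CPM over all 6. How far free RNA of sensory neurons makes up the S100a5 difference in n09 was not tested.

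Fabp7, the brain lipid-binding protein gene of radial glia and olfactory ensheathing cells, was higher in the occluded group. It had 35 and 24 UMIs in the control libraries (467 and 474 CPM), 61 and 101 in the occluded (996 and 1282 CPM) and 25 and 28 in the trained (542 and 397 CPM). Both occluded values lay above all 4 others. The log2 difference was 1.22 ± 0.28 for occluded against control (SE, edgeR adjusted p = 0.0127) and -1.30 ± 0.29 for trained against occluded (edgeR adjusted p = 0.0111). Leaving out control replicate 1, control replicate 2 or occluded replicate 2 ended the first call (edgeR adjusted p = 0.543, 0.622 and 0.524) at log2 differences of 1.24, 1.20 and 1.04, as did DESeq2 (0.999, at 1.24), and the second call was lost without control replicate 2, occluded replicate 2 or trained replicate 2 (edgeR adjusted p = 0.0782, 0.264 and 0.210) at -1.31, -1.13 and -1.07. With no filter on low counts neither passed (edgeR adjusted p = 0.253 and 0.287). Its mean was also higher in occluded than in control libraries in 13 of 17 other types, with both occluded libraries above both control libraries in 7 of them, and lower in trained than in occluded libraries in 16 of 17. The 5 ensheathing cell markers, Fabp7 among them, summed in n09 to 1534 and 1244 CPM in the control, 1812 and 3098 CPM in the occluded and 1713 and 1064 CPM in the trained libraries, with Sox10 at 9.64 CPM over all 6. Without Fabp7 the other 4 summed to 1067 and 770.1 CPM in the control, 816 and 1816 CPM in the occluded and 1171 and 667 CPM in the trained libraries, and occluded overlapped both other groups. Both occluded libraries were above all 4 others in the sums of endothelial markers (245 and 368 CPM, against 133 to 195 CPM) and of immature markers (2971 and 2717 CPM, against 1827 to 2128 CPM). Oligodendrocyte markers summed to 1227 and 1224 CPM in the control, 1747 and 1993 CPM in the occluded and 1778 and 1192 CPM in the trained libraries. Astrocyte markers went the other way, at 832 and 965 CPM in the occluded libraries against 1094 and 1126 CPM in the control. The trained libraries had 1214 and 880 CPM of them. Microglial markers overlapped, at 131 and 343 CPM in the occluded and 347 and 138 CPM in the control libraries. The part of RNA from ensheathing cells, glia or vessels in the Fabp7 difference was not tested.

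**Figure D5:**
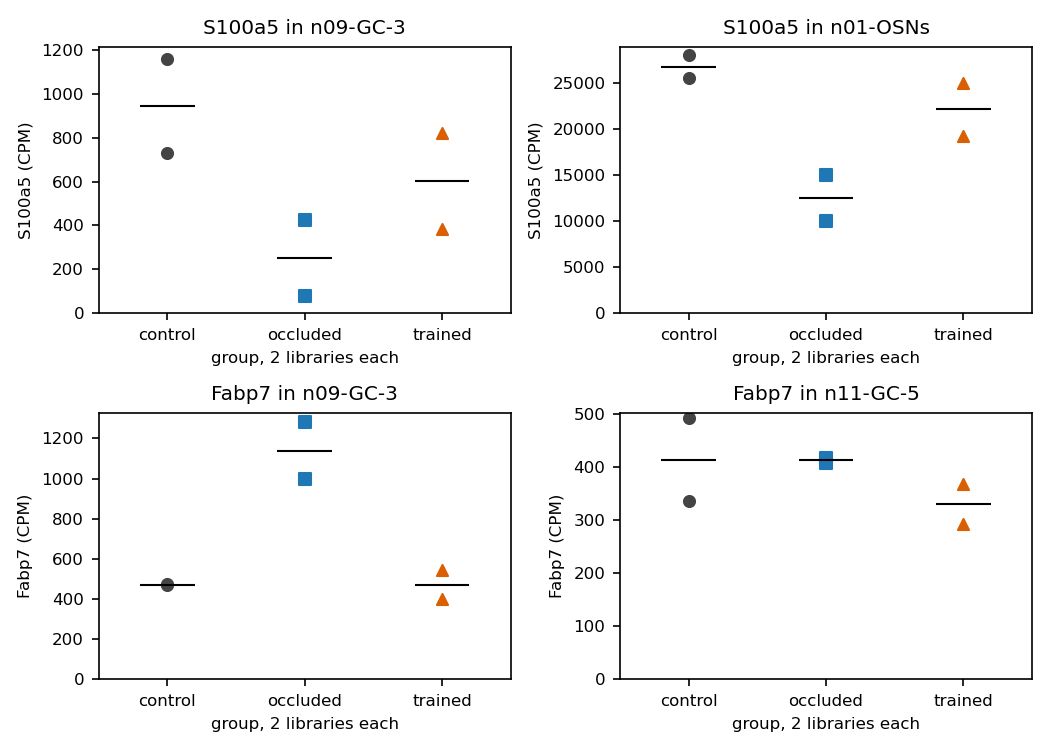
S100a5 in n09-GC-3 and n01-OSNs and Fabp7 in n09-GC-3 and n11-GC-5, in CPM with 1 point per library and the mean of each group of 2 as a line. S100a5 is lower in both occluded libraries than in both control libraries in n09 and n01 alike, and Fabp7 is higher in both occluded libraries in n09, while in n11 the control and occluded libraries overlap. In 7 of the 17 other types, n11 not among them, both occluded libraries were above both control libraries.

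Of 38 gene lists, 2 had a called member for occluded against control, the sensory neuron and the ensheathing cell markers, 0 for trained against control and 1, the ensheathing cell markers, for trained against occluded. The periglomerular, mitral or tufted, dividing and endothelial cell lists had 0 members tested, so none of theirs could be called. Trained against control, where no gene passed in the fit with group terms alone, is represented by the genes of smallest p. Dynll1, a light chain of dynein, was 667 and 592 CPM in the control, 604 and 762 CPM in the occluded and 1626 and 1206 CPM in the trained libraries, a log2 difference of 1.10 ± 0.28 (SE, edgeR adjusted p = 0.119). The trained libraries stood above the other 4, but the gene did not pass (with the replicate number as a block, edgeR adjusted p = 0.0452), and its mean was higher in trained than in control libraries in 15 of the 17 other types. Vamp2, a vesicle fusion gene, followed at 1.33 ± 0.39 (edgeR adjusted p = 0.450).

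Replicate 2 was set against replicate 1 over the 3 groups, a contrast in which sex and any other property of the number cannot be told apart. It called 3 of the 1417 genes (0.212%), with 75 at an unadjusted p under 0.05 and 1 call by DESeq2. Xist was at 0 UMIs in the replicate 1 libraries and at 1738, 1854 and 2128 CPM in the replicate 2 libraries of control, occluded and trained mice (edgeR adjusted p = 8.8e-61). Tsix, the antisense gene that overlaps Xist, had 0 UMIs in replicate 1 and 10, 18 and 8 in replicate 2 (edgeR adjusted p = 3.37e-05), and the call was lost without control replicate 2 (edgeR adjusted p = 0.345) or occluded replicate 2 (0.641). S100a5 was the third, lower in replicate 2 by a log2 difference of -1.16 ± 0.26 (edgeR adjusted p = 0.00292), with replicate 2 under replicate 1 in each of the 3 groups, and without any library but control replicate 1 it did not pass (edgeR adjusted p = 0.0576 to 0.215). None of the leading genes of n09 passed in this contrast.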

How the data were processed

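RNA of single cells was captured with 10x Genomics droplet chemistry and sequenced from the 3′ end. Per the study's methods, the authors made UMI counts with Cell Ranger 2.0.0, kept cells with at least 200 genes, removed doublets, and clustered with Seurat 2.2.1 after regressing out UMIs and mitochondrial share. The submitters' processing notes name the mm10 build. The deposited counts are whole UMIs per gene and cell, with no normalization. The deposited cell tables give each cell's type, its whole-bulb cluster and the fraction of mitochondrial UMIs as the authors computed it, which is printed here as a percent. The authors' scaled values were not used, 0 columns of other samples were met, and no doublet caller was run.

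Counts were summed over the cells of a type in each library and divided by their total to give CPM. A type's level was the mean ± SD over 6 libraries. Leading genes had the largest log2((n09 + 10)/(highest other type + 10)) with at least 100 CPM in n09. Low genes had the largest ratio the other way against the 7 other granule types, with at least 100 CPM in each of those. The other genes named come from lists, from the contrasts (up to 10 called genes, or the 3 of smallest p) or are Sox11. The members and lists were chosen with earlier results of these data known. Detection was compared after thinning to 500 UMIs a cell, as an exact expected value. Contrasts between groups used edgeR 4.0.16 (TMM, filterByExpr, quasi-likelihood F test) in R 4.3.3 with terms for group, all 6 libraries in one fit and an adjusted p of 0.05. DESeq2 1.42.0 was an alternative. The procedures were tested on simulated data. The replicate contrast added the number to the group terms. Other values were computed in Python 3.11.15 with numpy 2.4.6, scipy 1.17.1 and pandas 2.3.3. A library is a pool of mice, so the tests compare pools, with 2 per group. In edgeR the spread of a gene is drawn toward that of all genes over all 6 libraries. A small p therefore does not show that the pools of a group were close for that gene. For S100a5, occluded against control, the SE was 0.31 although the occluded pools stood at 424 and 76.2 CPM. The study's text gives the control mice both as untreated and as the open side of occluded mice, and the labels' account was followed. Intervals and floors cover counting error only.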

Additional observations from a re-analysis of the deposited data

How the results depend on the processing

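With 2 libraries per group, leaving out 1 library leaves an arm whose spread is taken from the other groups. Calls for occluded against control were 0 to 2 genes with each library left out in turn, 0 by DESeq2 and 1 with no filter on low counts. Calls for trained against control were 0 to 4 without 1 library and 1 with only cells of at least 1000 UMIs. For trained against occluded they were 0 to 9 (9 without trained replicate 2), 0 by DESeq2, 0 with no filter and 2 with only those deeper cells. The replicate contrast gave 1 to 4 without 1 library, 1 by DESeq2 and 1 with the deeper cells. Fitted with the replicate number as a block, the 3 group comparisons gave 2, 1 and 3 calls, Dynll1 for trained against control and Dynll1, S100a5 and Fabp7 for trained against occluded. Deviations of same-numbered libraries correlated at 0.124, 0.126 and 0.0931 over 1417 genes. The main fit had no term for the number, although it stands for sex in each group. For trained against occluded the edgeR adjusted p was 0.0449 for S100a5 and 0.0435 for Dynll1 with the block, and 0.0628 for both without it. The log2 ratio of the n09 share without 1 library ran from -0.12 to 0.16 for occluded against control, -0.62 to 0.21 for trained against control and -0.62 to 0.20 for trained against occluded. None of these uncalled ratios kept its sign throughout: occluded against control was -0.018 with the replicate block, -0.19 with TMM factors over the 12 types and -0.015 with only cells of at least 1000 UMIs, trained against control was 0.016 with those deeper cells, and trained against occluded was 0.10 with TMM factors and 0.032 with the deeper cells. The genes at least 1.5 times above every other type were 24 when n09 had to be highest in each of the 6 libraries, 46 to 52 without 1 library (45 to 48 of them shared), 50 with only the control libraries (34 shared), 45 with only cells of at least 1000 UMIs (37 shared) and, in an alternative chosen after seeing the data, 55 without the N9 cells (49 shared). The position of n09 between the axes was 27 to 30 of 100 genes without 1 library and 22 with only cells of at least 1000 UMIs. With 25 genes a side n09 was nearer axis B for 18 of 50 genes. The types n11, n10 and n03 remained the 3 most alike by Spearman correlation, with only the deeper cells and with genes of at least 200 CPM, n10 first in the last of these. In 300 of 300 recalculations the leading genes stayed above every other type. They had been picked by that ratio in the same cells, so the count is no independent evidence. Among the settings, a floor of 500 UMIs a cell drew no UMIs and took the same mean over cells of single-cell CPM. Its values were those of that mean, so it is a repeat within the 300 and no further check. The log2 ratio fell from 1.41 to 0.023 for Trdn with only cells of at least 1000 UMIs. With only the control libraries it fell from 0.96 to 0.15 for Phactr3 and 1.05 to 0.20 for Phxr4. It also fell from 3.08 to 2.34 for Inhba as the mean over cells of single-cell CPM, from 3.05 to 2.30 for Mylk and 2.77 to 1.92 for Ccdc85a with only the control libraries, and from 2.15 to 1.42 for Brinp3 with only the deeper cells. No called difference changed direction. The causes of these changes were not tested.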

Other observations

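Several other gene groups of n09-GC-3 belong to no comparison above and are given as values, in CPM with the SD over 6 libraries. Counts of members highest in n09 stand beside 4.94% of all genes. Among sodium and calcium channel genes, 1 of 22 listed had its highest mean in n09, Cacna1g, which encodes a low-threshold calcium channel (70.6 ± 46.7 CPM, against 54.9 ± 14.9 CPM in n06-Transition). The 25 activity-induced genes summed to 1011 ± 313 CPM, rank 8 of the 18 types, with Fos at 43.3 ± 26.7 CPM, Egr1 at 55.6 CPM and Arc at 8.09 ± 9.37 CPM from 3 UMIs, while Jund (306 ± 93.7 CPM) and Nr4a3 (33.8 ± 36.7 CPM) had their highest means in n09. The 12 genes of dissociation stress and heat shock summed to 3463 ± 568 CPM, rank 9. Of 20 cadherin and protocadherin genes, 2 had their highest mean in n09, Pcdh9 (258 ± 109 CPM) and Cdh9 (18.7 ± 16.8 CPM), and of 31 axon guidance genes, 2 did so, Dcc (39.8 ± 31.0 CPM) and Epha6 (19.3 ± 18.3 CPM). Among genes of immature neurons and migration, Ncam1 was at 627 ± 228 CPM and Marcks at 550.2 ± 99.0 CPM. Calb2, the calretinin gene of many periglomerular and some granule cells, was at 123 ± 67.3 CPM in n09 and 13129 ± 2397 CPM in n03-GC-1. Tpbg marks a superficial group of granule cells, and the paper reports it as a label of n12-GC-6. It had 4 UMIs in n09 and was at 455 ± 64.7 CPM in n14-GC-7.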
